A study of Mus musculus with 3 samples.

Results

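The 61 genes described here code for proteins of the cytosolic ribosome. They were taken by name, as every gene with a single-gene probe set whose symbol starts with Rpl or Rps and follows the naming of ribosomal proteins, out of 19938 genes read by the 3 arrays. Of the 61, 30 belong to the large subunit, 3 to its stalk and 21 to the small subunit. The other 7 (Rpl3l, Rpl7l1, Rpl10l, Rpl32l, Rpl39l, Rps27l and Rps4l) are paralogs, and RefSeq lists Rps4l as a transcribed pseudogene. RefSeq holds 89 symbols of this naming pattern. For 28 of them, Rpl3, Rpl11, Rpl22l1, Rpl39, Rps27 and Rps27a among them, no probe set listed that gene alone, and 17 of these 28 were listed only beside other genes.

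Each group was 1 array of sorted pancreatic cells, all from C57BL/6 mice more than 6 weeks old. Beta cells came from 3 pooled MIP-GFP mice (green fluorescence from the insulin promoter) that were Fbw7 +/+ and untreated. Fbw7 KO ductal cells came from 6 pooled mice with both Fbw7 alleles floxed (Fbw7 F/F), and Fbw7 WT ductal cells from 6 pooled Fbw7 +/+ mice. Both kinds of ductal mice carried Ck19-CreERT, a tamoxifen-inducible Cre driven by the cytokeratin 19 promoter, and R26-LSL-YFP, a yellow fluorescent reporter that Cre switches on, by which the cells are labelled. Both received tamoxifen for 5 days and were collected 7 days after the last dose. Cell type, reporter and tamoxifen all set the beta cell array apart from the others and cannot be told apart. For every array 30000 cells were sorted and 18 ng of RNA was amplified with NuGEN kits. With 1 array per group there is no replicate check of any difference, no p-value is given, and the number of arrays limits the precision. Fewer cells of a type and less RNA per cell cannot be told apart in such bulk samples.

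Ribosomal proteins and ribosomal RNA together form the particle that translates messenger RNA. Their messages are among the most abundant of most cells, and in mammals many start at a tract of pyrimidines, the terminal oligopyrimidine motif, through which mTOR and the RNA-binding protein Larp1 control their translation. Myc drives transcription of many genes of ribosome production, and Fbw7 (gene Fbxw7), the substrate-recognition part of a ubiquitin ligase, marks Myc for degradation. Secretory cells of the pancreas, beta cells included, depend on high protein synthesis. The comparison of the ductal arrays asks what loss of Fbw7 changes in these genes, and the beta cell array sets an endocrine cell type beside them.

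RefSeq (GRCm38.p6) windows from 250 bases before to 50 bases after the transcription start were on hand for 49 of the 61 genes. Among the 43 that are not paralogs, CGGAAG, a core read by ETS-family factors such as Gabpa, stood on either strand in 31 genes (72.1%), against 18.8% of 27025 genes with a window. A pyrimidine tract, here a C followed by at least 7 C or T on the transcribed strand within 50 bases of the start, stood in 34 of the 43 (79.1%), against 32% of all genes. GGGCGG, the box of the Sp1 family, was found in 60.5%, against 38.2% of all genes. CACGTG, the E-box that Myc and Max bind, was found in 11.6%, against 8.09% of all genes, and TATAAA in 11.6%, against 15.7%. All but the tract were searched on both strands. A match describes letters and is not a bound site, and a tract read as CTTCC can run into CTTCCG. The windows below run from 60 bases before the start to 30 after it, with tracts and CGGAAG or its reverse complement CTTCCG in capitals. They are shown for Rps6 as an example with both motifs, for Rps27l, Rps10 and Rpl5, which were at least 3-fold lower in beta than in both ductal groups as deposited, for Rps15a, which was below the floor on the beta cell array only, and for Rpl4 and Rps12, whose chosen probe sets were nearly level on the 3 arrays. They lie at chr4:86857338-86857427, minus strand (Rps6), chr9:66946026-66946115, plus strand (the first of the Rps27l starts), chr7:118116118-118116207, minus strand (Rps15a), chr17:27635215-27635304, minus strand (Rps10), chr5:107900468-107900557, plus strand (Rpl5), chr9:64173327-64173416, plus strand (Rpl4) and chr10:23787180-23787269, minus strand (Rps12).
Rps6: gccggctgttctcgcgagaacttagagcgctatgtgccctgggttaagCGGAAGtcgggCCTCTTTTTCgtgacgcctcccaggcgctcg
Rps27l: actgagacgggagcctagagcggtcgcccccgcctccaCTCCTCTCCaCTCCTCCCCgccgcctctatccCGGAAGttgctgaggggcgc
Rps15a: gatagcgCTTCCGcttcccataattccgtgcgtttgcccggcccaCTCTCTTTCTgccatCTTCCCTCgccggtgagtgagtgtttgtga
Rps10: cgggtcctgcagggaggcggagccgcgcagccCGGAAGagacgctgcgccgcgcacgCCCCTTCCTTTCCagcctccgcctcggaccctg
Rpl5: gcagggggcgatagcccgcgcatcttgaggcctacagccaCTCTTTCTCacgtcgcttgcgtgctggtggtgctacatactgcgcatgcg
Rpl4: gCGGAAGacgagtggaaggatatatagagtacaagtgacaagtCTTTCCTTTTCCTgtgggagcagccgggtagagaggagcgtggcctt
Rps12: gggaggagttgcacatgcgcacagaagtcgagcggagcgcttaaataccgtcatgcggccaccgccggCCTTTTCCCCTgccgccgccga
Both motifs were present in genes that were low and in genes that were level, as deposited, on the beta cell array. These classes depended on scale. Once a loess trend over level was removed, Rpl4 (1.17) and Rps12 (1.10) were higher in beta than in Fbw7 WT ductal cells. Rpl5 (-0.55) and Rps10 (-0.67) stayed lower by less. As deposited, the median log2 difference between beta cells and Fbw7 WT ductal cells was -0.82 in the 31 genes with CGGAAG. It was -1.14 in the 12 without it. Against Fbw7 KO ductal cells these medians were close, at -0.84 and -0.88. For the pyrimidine tract the medians against Fbw7 WT ductal cells were -0.81 in 34 genes with it and -1.20 in 9 without it. Against Fbw7 KO ductal cells they were -0.74 and -1.03. These splits were made on the values as deposited only.

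All levels are log2 intensities as deposited, and the floor of each array was its median over single-gene probe sets, 5.30 for beta cells, 5.24 for Fbw7 KO ductal cells and 5.23 for Fbw7 WT ductal cells. A gene entered a comparison where the higher of its 2 levels lay above the floor of its array. Of the 61 genes, 56 were above the floor on all 3 arrays. The 4 paralogs Rpl39l, Rpl10l, Rpl3l and Rpl32l were below it on all 3 and entered no comparison. Rps15a was below it on the beta cell array only. The median level over the 61 genes was 9.57 in beta cells, 10.79 in Fbw7 KO ductal cells and 10.92 in Fbw7 WT ductal cells, beside 5.09, 4.91 and 4.88 over all probe sets of the same arrays. The SD over all probe sets was 1.57 in beta cells, 1.97 in Fbw7 KO ductal cells and 2.02 in Fbw7 WT ductal cells, so the beta cell array had the narrower spread of values.

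**Figure D1:**
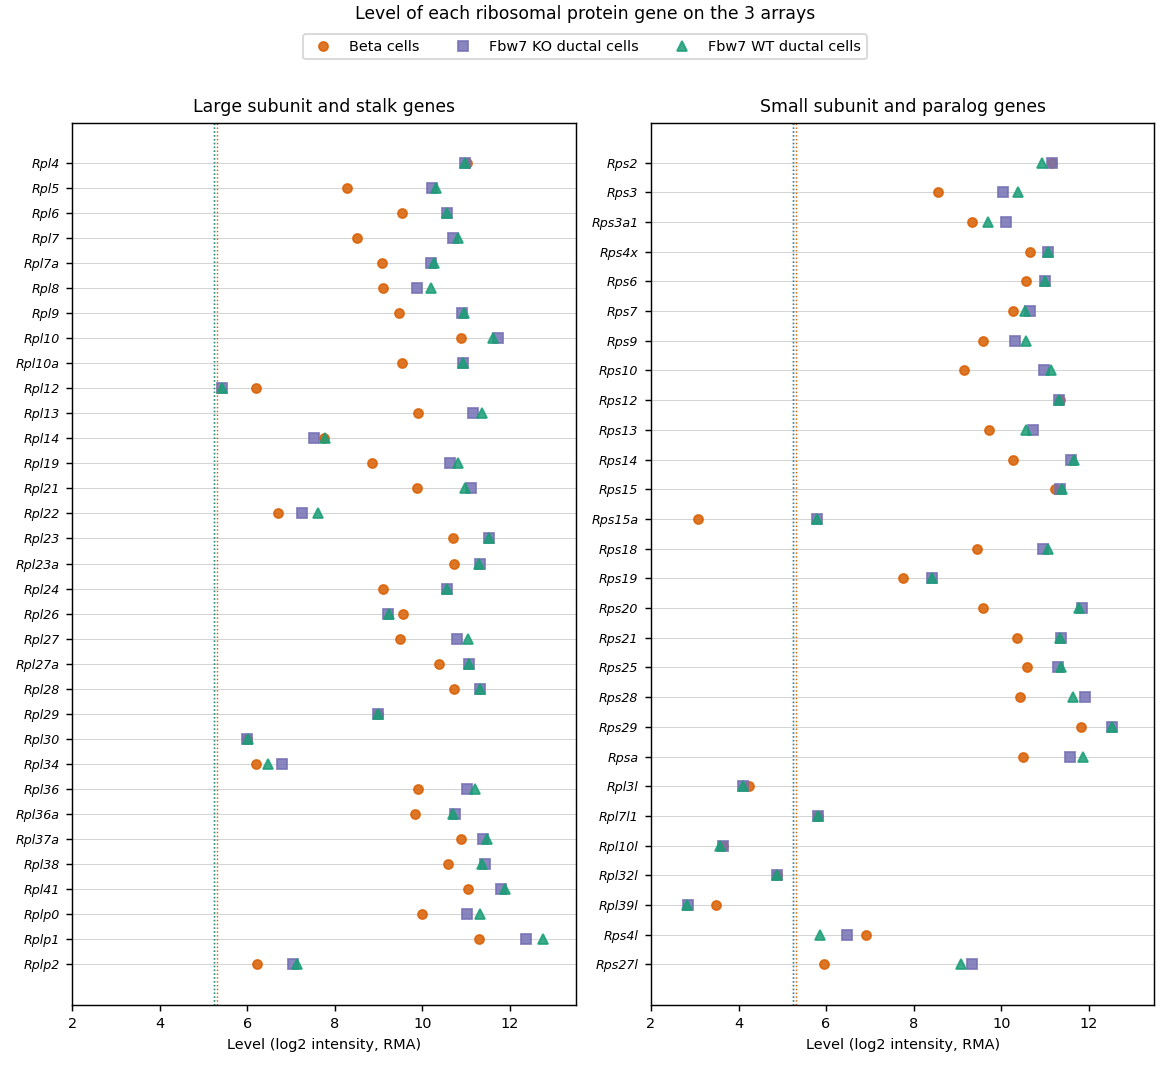
Level (log2 intensity) of each of the 61 genes in beta cells (circles), Fbw7 KO ductal cells (squares) and Fbw7 WT ductal cells (triangles), with large subunit and stalk genes left, small subunit genes and paralogs right, and dotted lines at the floors of 5.30, 5.24 and 5.23. The squares and triangles lie together for nearly every gene, and most circles lie to their left as deposited, farthest for Rps27l and for Rps15a, whose circle is below the floor.

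The targeted gene was read by 2 single-gene probe sets. One held 7.00 in beta cells, 5.71 in Fbw7 KO ductal cells and 6.32 in Fbw7 WT ductal cells. The other held 4.95 on all 3 arrays, below the floor. Where these probes lie relative to the floxed part is not known, so they do not check the labels. The labelled cell types were set against their markers. Ins2 was at 11.04 in beta cells, 5.87 in Fbw7 KO ductal cells and 5.31 in Fbw7 WT ductal cells. Of 8 beta markers above the floor in beta cells or Fbw7 WT ductal cells, 6 were at least 2-fold higher in beta cells. But Pdx1, a transcription factor of beta cells, was at 5.14 and G6pc2 at 4.83 in beta cells, both below the floor. Mafa was at 5.49 on all 3 arrays. Slc2a2 was at 6.05 in beta cells, 6.90 in Fbw7 KO ductal cells and 5.64 in Fbw7 WT ductal cells. Krt19, the gene of cytokeratin 19, was at 6.71 in beta cells, 9.53 in Fbw7 KO ductal cells and 9.13 in Fbw7 WT ductal cells, but Krt19 is a mesothelial marker too. Of 11 duct markers above the floor in beta cells or Fbw7 WT ductal cells, 5 were at least 2-fold lower in beta cells, while Onecut1 (0.95), Cldn4 (0.57), Cdh1 (0.38) and Muc1 (0.19) were higher in beta cells and Epcam was at 5.42 in both. The duct list's median was -0.78 as deposited and 0.0017 after loess. Cftr, a chloride channel of duct cells, was below the floor in both ductal groups, at 5.13 in the KO and 4.95 in the WT, and Prom1 was at 6.78 in the KO and at 4.91, below the floor, in the WT.

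Fbw7 KO and Fbw7 WT ductal cells held close levels of ribosomal protein messages. None of the 57 genes above the floor was at least 2-fold higher in Fbw7 KO cells, where 1.43% of all 10035 genes were, and none at least 2-fold lower, where 1.81% were. Their log2 differences ran from -0.40 for Rplp1 to 0.63 for Rps4l with a median of 0, equal to the median over all genes. Of all 10035 genes, the KO level was higher in 1643 and lower in 3551. In 17 of the 57 genes it was higher and in 28 it was lower. In 12 (21.1%) both arrays held exactly the same value, as did 48.2% of all genes. These signs depended on scale, with 17 higher and 40 lower under quantile normalization and 37 higher and 20 lower after loess. In 56 of the 57 (98.2%) the difference was under 0.5, against 87.2% of all genes. Among genes with a mean level of at least 9, all 46 ribosomal protein genes lay within 0.5, against 73.2% of 466 other genes, of which 6.01% were higher and 3.65% lower in Fbw7 KO cells by that margin of 2-fold or more.

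The 30 large subunit genes had a median log2 difference of -0.02 between Fbw7 KO and Fbw7 WT ductal cells, with 8 higher, 17 lower and 5 the same. The sign of so small a median turned when a loess trend over level was removed (0.05). Rpl22, an RNA-binding protein of the large subunit, had 7.26 in KO cells and 7.60 in WT cells, a difference of -0.34. Rpl8, near the peptidyl transferase centre, had 9.88 in KO cells and 10.21 in WT cells (-0.33), while Rpl14 differed by -0.25 and Rpl27 by -0.24. On the other side, Rpl34 had 6.80 in KO cells and 6.47 in WT cells (0.33), and Rpl21 differed by 0.13. Rpl5, which with Rpl11 and 5S ribosomal RNA forms the particle that can bind Mdm2, was nearly level at 10.23 in KO cells and 10.31 in WT cells. Rpl10, which joins the large subunit late in its assembly, had 11.72 in KO cells and 11.62 in WT cells.

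The 3 stalk genes, whose products recruit translation factors to the ribosome, were all lower in Fbw7 KO cells as deposited and under quantile normalization, centring and loess. Rplp0, the base of the stalk, had 11.03 in KO cells and 11.31 in WT cells (-0.28). Rplp1 had 12.36 in KO cells and 12.76 in WT cells, the most negative of the 57 differences at -0.40. Rplp2 had 7.05 in KO cells and 7.14 in WT cells, a difference of -0.10, which was -0.0005 with quantile normalization. Second probe sets of Rplp0 and Rplp1 were lower in KO cells too, by log2 differences of -0.61 and -0.22. None of these came near the 2-fold mark, and there is no spread to set them against.

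The 21 small subunit genes had a median of 0 between the ductal arrays, with 7 higher, 8 lower and 6 the same. Rps3a1 had 10.11 in KO cells and 9.71 in WT cells (0.40). Rps28 had 11.91 in KO cells and 11.64 in WT cells (0.27), and all 7 of its probe sets were higher in KO cells, by 0.15 to 0.32. Rps3, which lines the messenger RNA entry channel, had 10.04 in KO cells and 10.38 in WT cells (-0.34). Rpsa, also known as the laminin receptor precursor, had 11.58 in KO cells and 11.87 in WT cells (-0.29), and all 5 of its probe sets were lower in KO cells, with differences of -0.38 to -0.14. Rps2 differed by 0.23, but its other 2 probe sets were lower in KO cells, the lowest at -0.23. Rps9 differed by -0.24 and Rps13 by 0.17. Rps19, mutated in human Diamond-Blackfan anaemia, held 8.42 in both ductal groups, and Rps6, the target of S6 kinase, and Rps4x held the same value in both as well, at 10.997 for Rps6 and 11.07 for Rps4x.

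Of the 3 paralogs above the floor, Rps4l had 6.48 in KO cells and 5.85 in WT cells. It was the only 1 of the 57 genes at least 1.5-fold higher in KO cells, where 2.81% of all genes were. Its second probe set held 5.75 on all 3 arrays. Rps27l, a paralog of Rps27 that p53 induces, had 9.32 in KO cells and 9.08 in WT cells (0.24). Rpl7l1 held 5.81 on all 3 arrays, while its partner Rpl7 had 10.70 in KO cells and 10.81 in WT cells. Partners Rpl3, Rpl39 and Rps27 had no probe set of their own and were not analysed here.

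Acinar, duct and mesenchyme markers differed between the ductal arrays while the ribosomal protein genes stayed close. Of 13 acinar markers above the floor, 11 were at least 2-fold higher in Fbw7 KO cells, with a mean list level of 9.92 in KO cells and 8.52 in WT cells. Of 11 duct markers, 6 were at least 2-fold higher in KO cells, at a mean level of 8.07 in KO cells and 6.91 in WT cells. Of 10 mesenchyme markers, 4 were at least 2-fold lower in KO cells, at 8.17 in KO cells and 8.86 in WT cells. Mesothelial markers were as high in the KO (10.2) as in the WT (10.2), with 0 of 8 past 2-fold. The part of these markers in the small differences of ribosomal protein genes was not tested.

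**Figure D2:**
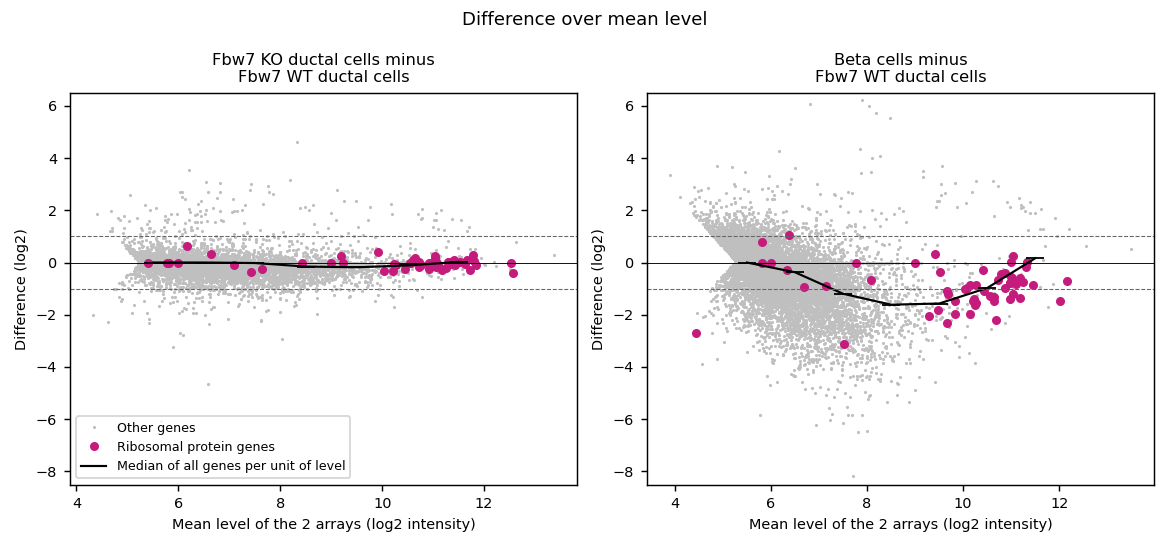
Log2 difference of each gene above the floor over its mean log2 level on the 2 arrays, for Fbw7 KO minus Fbw7 WT ductal cells (left) and beta cells minus Fbw7 WT ductal cells (right), with ribosomal protein genes large, other genes small, the median of all genes per unit of level as a line and dashed lines at 2-fold. Left, the ribosomal protein genes lie between -0.40 and 0.63; right, most lie below 0 as deposited, where the line bends down to -1.61 between levels 8 and 9 and returns to 0.16 between 11 and 12, and their median is 0.20 once a loess trend over level is removed.

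Beta cells read lower than Fbw7 WT ductal cells for most ribosomal protein genes as deposited, with a median log2 difference of -0.87 over 57 genes, but the median was 0.20 once the trend over level had been removed by loess. As deposited, 49 genes were lower, 6 higher and 2 the same. Of all 11139 genes above the floor, 5990 were lower, 3046 higher and 2103 the same. In 24 of the 57 (42.1%) the beta cell level was at least 2-fold lower, against 25.8% of all 11139 genes above the floor, and 1 gene, Rps4l, was at least 2-fold higher, against 6.37% of all genes. With the floor at the 90th percentile, 23 of 50 ribosomal protein genes (46%) were at least 2-fold lower in beta cells against 59.1% of all genes, and the medians were -0.92 and -1.42. Among genes with a mean level of at least 10 the order was the other way round: the median was -0.86 over 36 ribosomal protein genes and 0.09 over 57 other genes, of which 40.4% were at least 2-fold higher in beta cells. Those highest bins hold few other genes.

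Rps27l was the only gene with both levels above the floor that was at least 2-fold lower in beta cells than in Fbw7 WT ductal cells as deposited and under quantile normalization, centring and loess. Rps27l had 5.95 in beta cells, 9.32 in Fbw7 KO ductal cells and 9.08 in Fbw7 WT ductal cells, 8.72-fold lower in beta than in WT ductal cells and 10.3-fold lower than in KO ductal cells. Under the 3 other scalings its log2 difference from WT ductal cells lay between -3.19 and -1.88. Rps15a had 3.08 in beta cells and 5.79 in both ductal groups. Since the beta value lay below the floor, only a bound holds, at least 1.397-fold lower in beta cells with the floor in its place, and its measured difference is not a size. Counted in this way, 23 of the 57 genes were at least 2-fold lower and the median was -0.85. Both have 1 single-gene probe set.

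Among large subunit genes, 13 of 30 were at least 2-fold lower in beta cells than in Fbw7 WT ductal cells and none was at least 2-fold higher. Of all genes, 25.8% were lower and 6.37% higher by as much. The median of the large subunit genes was -0.86 as deposited, and 0.25 after loess, where 0 were at least 2-fold lower and 4 higher. Rpl7 had 8.50 in beta cells, 10.70 in KO ductal cells and 10.81 in WT ductal cells, 4.95-fold lower in beta than in WT ductal cells, and its 4 probe sets ran from -2.61 to -2.31. Rpl5 had 8.28 in beta cells, 10.23 in KO ductal cells and 10.31 in WT ductal cells. All 5 of its probe sets were lower in beta than in WT ductal cells, but by amounts as unlike as -3.48 and -1.48, the widest range of any member. Rpl19 had 8.84 in beta cells, 10.63 in KO ductal cells and 10.81 in WT ductal cells, and was lower on all 7 probe sets. Rpl27 differed by -1.54. Rpl26, by contrast, had 9.57 in beta cells, 9.21 in KO ductal cells and 9.24 in WT ductal cells, and Rpl12 had 6.201 in beta cells and 5.41 in both ductal groups. These 2 were higher in beta than in WT ductal cells under all 4 scalings. Rpl4 had 11.01 in beta cells and 10.98 in both ductal groups, Rpl14 had 7.76 in beta cells, 7.52 in KO ductal cells and 7.77 in WT ductal cells, and Rpl29 held 8.99 on all 3 arrays.

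The 3 stalk genes were lower in beta cells than in Fbw7 WT ductal cells under all 4 scalings. Rplp1 had 11.28 in beta cells and 12.76 in WT ductal cells (-1.48), Rplp0 had 9.99 in beta cells and 11.31 in WT ductal cells (-1.32), and Rplp2 had 6.22 in beta cells and 7.14 in WT ductal cells (-0.92). After loess the median of the 3 shrank to -0.29.

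Among small subunit genes, 8 of 21, Rps15a with its value below the floor among them, were at least 2-fold lower in beta cells than in Fbw7 WT ductal cells, with a median of -0.85 as deposited and 0.35 after loess. Of all genes, 25.8% were lower by as much. After loess 1 small subunit gene, Rps15a, was at least 2-fold lower and 3 (Rps2, Rps12 and Rps3a1) were higher. Rps20 had 9.58 in beta cells, 11.84 in KO ductal cells and 11.78 in WT ductal cells, 4.59-fold lower in beta than in WT ductal cells. Rps10 had 9.16 in beta cells, 10.97 in KO ductal cells and 11.13 in WT ductal cells, 3.93-fold lower. Rps3 was 3.52-fold lower in beta than in WT ductal cells, Rps18 3.07-fold and Rpsa 2.60-fold. Rps19 had 7.76 in beta cells and 8.42 in both ductal groups, and Rps4x had 10.67 in beta cells and 11.07 in both ductal groups. At the near-level end, Rps12 had 11.35 in beta cells and 11.32 in both ductal groups, and Rps15 had 11.22 in beta cells and 11.38 in WT ductal cells. Rps2 had 11.16 in beta cells and in KO ductal cells and 10.92 in WT ductal cells. Both Rps12 and Rps2 also have probe sets that were lower in beta than in WT ductal cells, down to -0.80 and -0.86. Rps4l, the pseudogene, had 6.90 in beta cells and 5.85 in WT ductal cells, 2.07-fold higher, on 1 of its 2 probe sets only.

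Beta cells set against Fbw7 KO ductal cells gave like counts. This comparison uses the same beta cell array and is not a second measurement of beta cells. At least 2-fold lower in beta cells were 25 of 57 genes (43.9%), against 23% of all 11095 genes, and none was at least 2-fold higher, against 5.13% of all genes. At a floor of the 90th percentile the order turned, to 24 of 50 (48%) against 54.3% of all genes, with medians of -0.88 and -1.17. The median was -0.84 as deposited, -0.21 with quantile normalization and -0.12 after loess. Under all 4 scalings, 31 genes were lower and 4 higher in beta cells, and Rps27l, Rps20 and Rpl7 were at least 2-fold lower with both levels above the floor. With Rps15a, below the floor in beta cells, raised to it, the count was 24 and the median -0.82. The beta levels of Rps20 and Rpl7 lay below those of KO ductal cells by log2 differences of -2.26 and -2.19 as deposited. Rps28 was 2.78-fold lower in beta than in KO ductal cells, Rps13 2.02-fold and Rps21 2.01-fold.

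Of the 61 genes, 39 are read by more than 1 single-gene probe set, up to 14 for Rps12, and 217 such probe sets read the 61 genes. Processed pseudogenes of ribosomal protein genes are common in mammalian genomes, and a probe set may read such copies as well as the gene. Values for genes with several probe sets are therefore uncertain as levels of 1 gene. In 36 of the 39 genes all probe sets were lower in beta than in Fbw7 WT ductal cells as deposited, in none were all higher, and Rps12 and Rps2 had both signs. Agreement among probe sets was not counted over all genes. The probe sets of a gene spanned a median of 0.46 in the difference between beta and Fbw7 WT ductal cells and at most 1.998. Between Fbw7 KO and Fbw7 WT ductal cells the median span was 0.10, 17 of the 39 genes were lower in KO cells on all probe sets, 7 were higher on all, and no probe set of the 217 was past 2-fold. Rpl13 was lower in KO than in WT ductal cells on all 9 probe sets (-0.29 to -0.10), and Rpl21 was higher on all 9 (0.04 to 0.23). For 5 genes, 19 probe sets repeat all 3 values of another probe set of the same gene, so they do not count as separate readings.

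**Figure D3:**
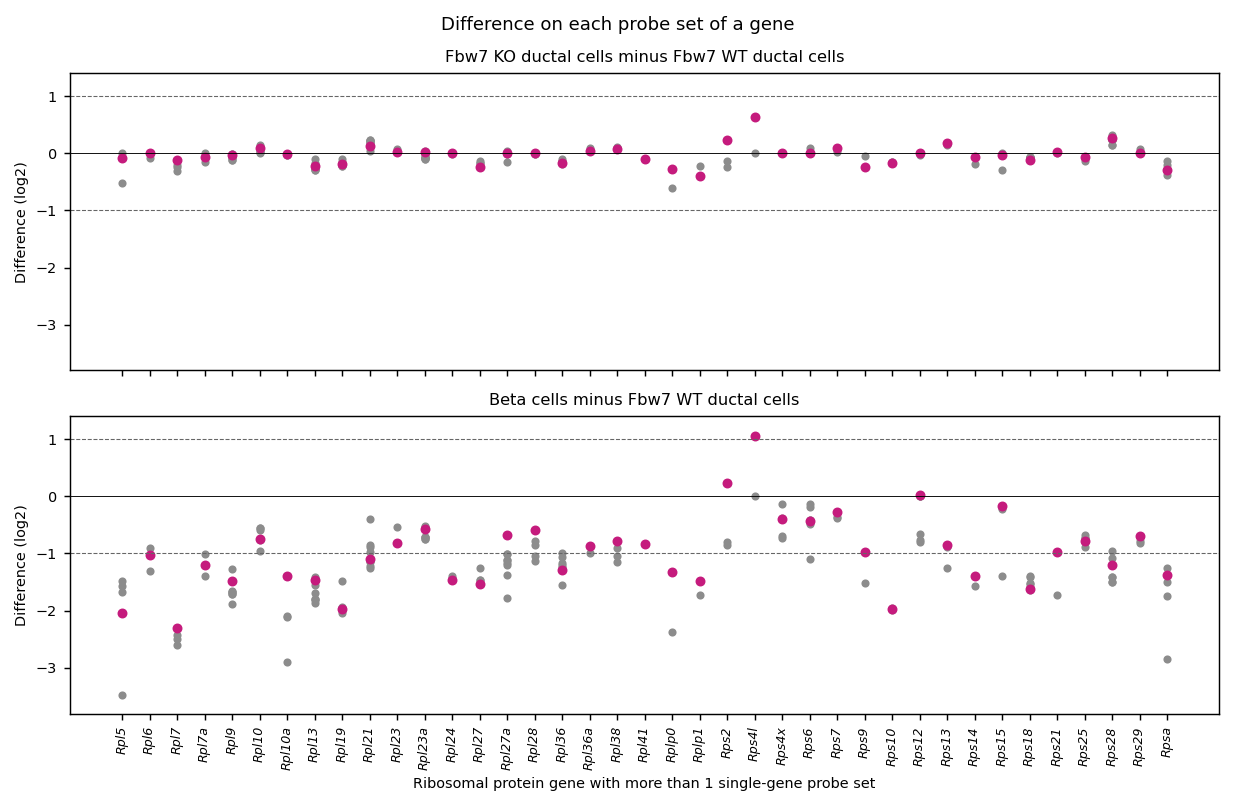
Log2 difference on every single-gene probe set of the 39 genes with more than 1, for Fbw7 KO minus Fbw7 WT ductal cells (top) and beta cells minus Fbw7 WT ductal cells (bottom), with the probe set used for the gene in magenta, the others in grey and dashed lines at 2-fold. All probe sets stay within 2-fold at the top, and at the bottom they lie below 0 for 36 genes as deposited, with the widest range for Rpl5.

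Other genes of the translation machinery were set beside the ribosomal protein genes. Between Fbw7 KO and Fbw7 WT ductal cells, 0 of 74 mitochondrial ribosomal protein genes, 0 of 40 initiation factors and 0 of 14 elongation factors and cofactors above the floor were past 2-fold in either direction. Of all genes only 1.43% were at least 2-fold higher and 1.81% lower, so counts of 0 or 1 say little in lists this short. The list of elongation factors and cofactors holds 3 genes, Eif3e, Eif3h and Eif4b, that are initiation factors and stand in that list too. Of 65 ribosome biogenesis genes, 1 was past it: Ltv1, which takes part in small subunit maturation, had 5.68 in KO cells and 6.84 in WT cells (-1.16). Single genes of the biogenesis and initiation lists ranged more widely than the ribosomal protein genes, as with Rrs1 at -0.98, Eif3b at -0.79 and Eif4a2 at 0.65. Fau, whose product is a small subunit protein fused to a ubiquitin-like protein, held 9.58 in beta cells and 10.37 in both ductal groups. Myc, a substrate of Fbw7 as a protein, had message levels of 8.73 in KO cells and 8.74 in WT cells. Max, its partner, had 8.08 in KO cells and 8.82 in WT cells, and 0 of 18 regulators above the floor were past 2-fold.

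Between beta cells and Fbw7 WT ductal cells, initiation factors had the lowest median of these lists as deposited, at -1.44, with 24 of 40 at least 2-fold lower in beta cells, and the median was -0.21 after loess. Eif4a1, an RNA helicase that unwinds message leaders, had 6.30 in beta cells and 10.97 in WT ductal cells (-4.67), and Eif5a had 5.58 in beta cells and 9.15 in WT ductal cells (-3.57). Ribosome biogenesis genes had a median of -0.67, with 25 of 65 at least 2-fold lower in beta cells, among them Rrn3, an initiation factor of RNA polymerase I, at 4.64 in beta cells, below the floor, and 7.97 in WT ductal cells. Elongation factors and cofactors had a median of -0.82, which turned to 0.20 after loess, and 6 of 14 were at least 2-fold lower. Pabpc1, the poly(A)-binding protein, had 8.85 in beta cells and 11.29 in WT ductal cells. Mitochondrial ribosomal protein genes had a median of -0.39, with 20 of 74 at least 2-fold lower, among them Mrpl51 at 4.99 in beta cells, below the floor, and 8.28 in WT ductal cells. These counts stand beside the 25.8% of all genes that were at least 2-fold lower in beta cells, which the mitochondrial list is close to.

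Genes linked to ribosomal protein control and to ribosomal stress were set beside Rps27l. Against 25.8% of all genes, 7 of 19 in the list of regulators were at least 2-fold lower in beta than in Fbw7 WT ductal cells, with Myc at 7.52 in beta cells and 8.74 in WT ductal cells and Max at 6.31 in beta cells and 8.82 in WT ductal cells. In the p53 list, 6 of 10 were at least 2-fold lower in beta cells, and the median of -1.46 stayed at -1.09 after loess. Ccng1, a p53 target, had 5.97 in beta cells, 8.91 in KO ductal cells and 8.999 in WT ductal cells. Mdm2, the ligase that degrades p53 and is itself a p53 target, had 5.48 in beta cells, 7.25 in KO ductal cells and 7.22 in WT ductal cells, and Phlda3 had 5.69 in beta cells, 7.87 in KO ductal cells and 7.72 in WT ductal cells. In the same list 2 genes, Sesn2 (0.31) and Bbc3 (0.19), were higher in beta than in WT ductal cells, and Sesn1 differed by only -0.38. A link between this list and the level of Rps27l was not tested. Between Fbw7 KO and Fbw7 WT ductal cells none of the 10 in the p53 list was past 2-fold, where 1.43% of all genes were higher and 1.81% lower by as much.

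**Figure D4:**
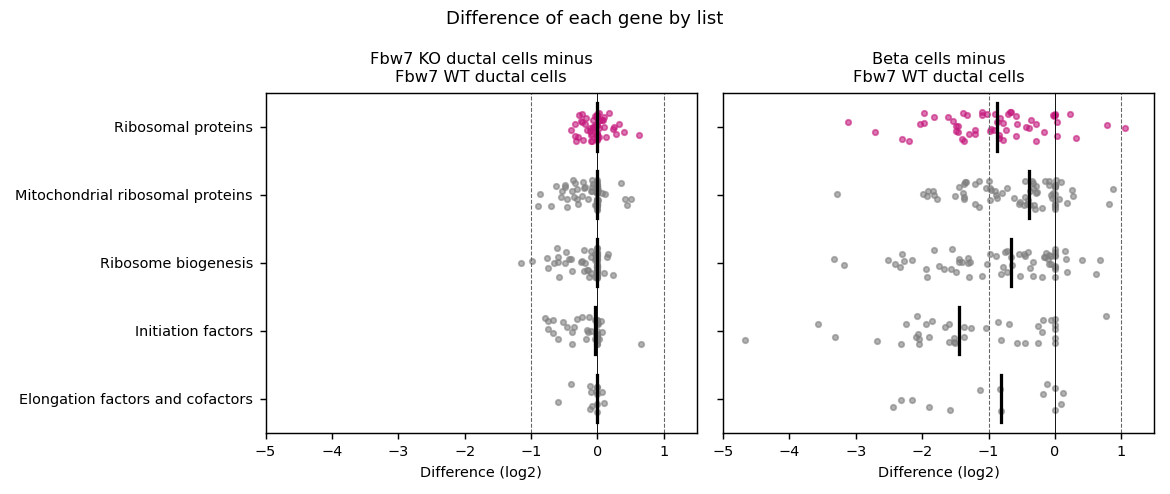
Log2 difference of each gene above the floor in 5 lists of the translation machinery, for Fbw7 KO minus Fbw7 WT ductal cells (left) and beta cells minus Fbw7 WT ductal cells (right), with bars at list medians and dashed lines at 2-fold. Left, all medians lie at or near 0 and the ribosomal protein genes run from -0.40 to 0.63; right, medians run from -0.39 to -1.44 as deposited, and those of ribosomal proteins and elongation factors turn positive after loess.

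Markers of other cell types moved with the beta cell comparison. All 8 mesothelial markers were at least 2-fold lower in beta than in Fbw7 WT ductal cells, with a mean list level of 5.14 in beta cells and 10.2 in WT ductal cells, and Msln was at 5.53 in beta cells and 10.61 in WT ductal cells. Of 10 mesenchyme markers 8 were at least 2-fold lower, at a mean of 6.76 in beta cells and 8.86 in WT ductal cells. Of 13 acinar markers 11 were at least 2-fold higher in beta cells, at 10.5 in beta cells and 8.52 in WT ductal cells, and Cpa1 was at 12.30 in beta cells and 11.03 in WT ductal cells. Of 8 leukocyte markers 4 were at least 2-fold higher in beta cells, and of 7 endothelial markers 3 were higher and 1 lower by as much. Markers of other islet cells were higher too, 4 of 5 by at least 2-fold with a median of 4.33. Gcg, the glucagon gene of alpha cells, had 11.003 in beta cells and 4.77, below the floor, in WT ductal cells, and Sst, the somatostatin gene of delta cells, had 11.04 in beta cells and 5.06, below the floor, in WT ductal cells. Their part in the ribosomal protein differences was not tested.

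How far the beta cell comparison rests on scale shows in the share of calls that were higher. Among ribosomal protein genes past 2-fold against Fbw7 WT ductal cells, 4% were higher in beta cells as deposited, 0% with each array centred, 35.7% with quantile normalization (5 higher, 9 lower) and 80% after loess (8 higher, 2 lower). Over all genes past 2-fold the shares were 19.8% as deposited, 16.6% centred, 37.3% with quantile normalization and 33.6% after loess. With quantile normalization the 2 shares were thus close. The 2 lower after loess include Rps15a, below the floor in beta cells. Against Fbw7 KO ductal cells the share was 0% as deposited, 50% with quantile normalization and 42.9% after loess. Over all genes past 2-fold it was 18.2%, 35.8% and 29.6%. Under all 4 scalings, 21 of the 57 genes were lower and 4 (Rpl12, Rpl26, Rps2 and Rps4l) higher in beta than in WT ductal cells. For Fbw7 KO against Fbw7 WT ductal cells, no ribosomal protein gene reached 2-fold under any of the 4.

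**Figure D5:**
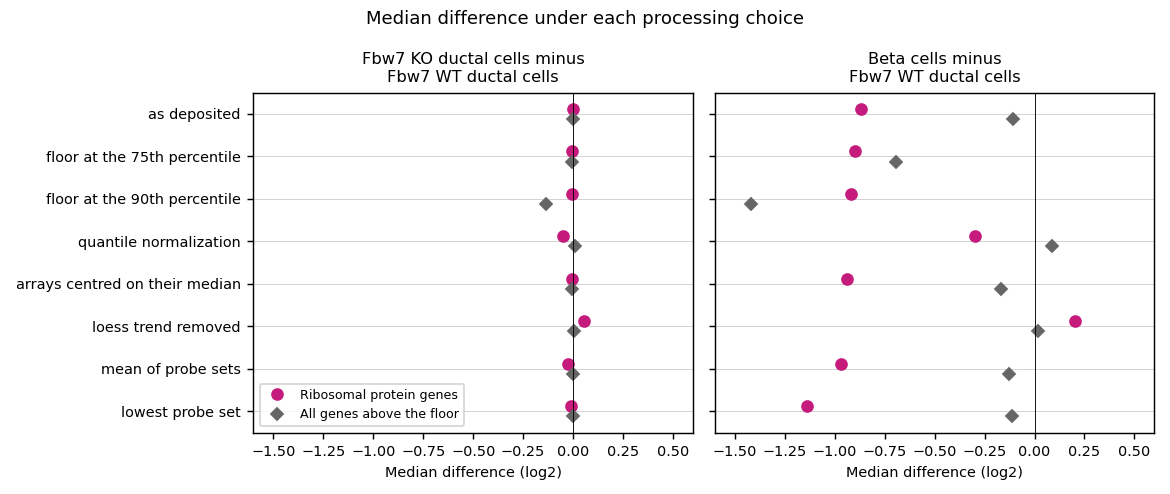
Median log2 difference of the ribosomal protein genes (circles) and of all genes above the floor (diamonds) under 8 processing choices, for Fbw7 KO minus Fbw7 WT ductal cells (left) and beta cells minus Fbw7 WT ductal cells (right). Left, the circles stay between -0.05 and 0.06; right, they run from -1.14 with the lowest probe set to 0.20 after loess, and the diamonds drop to -1.42 with the highest floor.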

How the data were processed

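RNA of 3 pools of sorted pancreatic cells was hybridised to 1 array each, after biotin labelling per the labels' protocols. The authors deposited log2 intensities per probe set, made with RMA per the submitters' processing notes. Its version and the set of arrays it was run on were not given in the sources used here. Of 35556 probe sets, 21789 list 1 gene, 1621 several and 12146 none in the platform annotation. Only single-gene probe sets were named, and a gene with several was represented by its brightest on average. All 61 members matched a RefSeq symbol (GRCm38.p6).

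Groups follow the labels. For each pair of arrays, log2 differences were computed over genes above the floor (50th percentile), with a count of those at least 2-fold apart. No test was possible with 1 array per group. Alternatives were other floors, 1.5-fold and 4-fold thresholds, quantile normalization, centring, loess on mean level (span 0.3), other probe set rules and leaving out paralogs. Raising levels to the floor, leaving out equal values, and counting every single-gene or several-gene probe set were added after seeing the data. Members and lists were chosen with earlier results of these data known, and Rpl32l was put among the paralogs after the members had been listed. Named are, per comparison, the 8 highest and 8 lowest members, paralogs and partners, stalk genes, Rpl5, Rps19, Rpl10, Rpsa, members of extreme level or with probe sets 2-fold apart, and up to 4 genes per list; others named were chosen after their values were seen. The steps were tested on simulated data. The tools were statsmodels 0.14.6 (loess), pandas 2.3.3, numpy 2.4.6 and matplotlib 3.10.9 under Python 3.11.15.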

Additional observations from a re-analysis of the deposited data

How the results depend on the processing

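No paired analysis was possible because each group is 1 array. The comparison of the ductal arrays kept counts of 0 at 2-fold under every alternative tried, and 1 gene (Rps4l) was higher in Fbw7 KO cells at 1.5-fold. For beta cells against Fbw7 WT ductal cells, the median was -0.30 with quantile normalization, 0.20 after loess, -0.97 with the mean of probe sets, -1.14 with the lowest probe set and -1.04 over 213 single-gene probe sets. The count of genes higher in beta cells was 5 with quantile normalization, 8 after loess, 2 at 1.5-fold, and 0 with centring, the mean of probe sets, the lowest probe set, without paralogs and at 4-fold. Of all genes, 10.6% were at least 2-fold higher with quantile normalization and 8.1% after loess. The count lower was 9 with quantile normalization, 2 after loess, 38 at 1.5-fold, 5 at 4-fold, 111 of 213 single-gene probe sets and 84 of 235 probe sets listing several genes. These gene counts include Rps15a, whose beta cell value lay below the floor. For the counts at 1.5-fold and 4-fold, here and against Fbw7 KO ductal cells, no share of all genes is given. Those counts do not set the ribosomal protein genes apart. The 9 were 15.8% against 17.9% of all genes, and the 2 were 3.51% against 16%. Both shares lay below those of all genes, unlike the 42.1% against 25.8% as deposited. After loess, Rpl21 (0.16), Rpl8 (0.30), Rpl6 (0.30) and Rpl7a (0.20), at least 2-fold lower as deposited, turned positive. Of 34 genes followed singly across settings, Rpl21 and Rpl8 among them, 12 changed sign. For beta cells against Fbw7 KO ductal cells, the median was -0.21 with quantile normalization, -0.12 after loess, -0.999 with the mean of probe sets, -1.12 with the lowest, -1.07 over single-gene and -0.999 over several-gene probe sets. Higher in beta cells were 5 genes with quantile normalization, 3 after loess, 1 at 1.5-fold and 1 several-gene probe set. Of all genes, 9.4% were at least 2-fold higher with quantile normalization and 6.44% after loess. Lower were 5 with quantile normalization, 4 after loess, 41 at 1.5-fold, 4 at 4-fold, 118 of 213 single-gene and 116 of 235 several-gene probe sets. Rps15a, below the floor in beta cells, is in each of these gene counts. With quantile normalization the share was 8.77% against 16.8% of all genes, and after loess 7.02% against 15.3%. The cause of these shifts was not tested, beyond the larger number of units in the probe set counts and the lower or higher threshold. Other floors, raising levels to the floor and leaving out equal values moved no median by over 0.1 and no count by over 1.5 times. Over all comparisons, 310 values for the genes followed singly stayed within 0.1 of those as deposited, 6 of these with the opposite sign. Another 198 moved by more, 38 of these to the opposite sign. A further 2 values, at least 2-fold apart as deposited, reversed in sign. No detection values were used, so the floor is a chosen level and not a detection limit.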
